A study of Arabidopsis thaliana with 4 samples.

Results

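The genes described here encode xyloglucan endotransglucosylase/hydrolases (XTH) and alpha-expansins (EXPA), the enzymes and proteins best known for loosening the growing plant cell wall. They were chosen by locus identifier from a list of 35 loci, 25 XTH and 10 EXPA genes, from which the hair-cell expansins EXPA7 and EXPA18 had been left out. The expression matrix held a row for 34 of the 35, out of 20511 nuclear gene rows, and XTH26 (AT4G28850) was not analysed here. No level or fold change was used as a filter, but the genes were chosen with earlier results of these data known.

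In the primary wall, cellulose microfibrils are tethered and coated by xyloglucan, a branched hemicellulose. XTH enzymes cut a xyloglucan chain and rejoin the cut end to another chain, or, in a few family members, to water. Alpha-expansins carry no known hydrolytic activity and loosen the contacts between cellulose and xyloglucan when proton pumps acidify the wall. In roots both families act where cells elongate, where root hairs bulge, where lateral roots push through outer tissue and at healing wounds.

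Arabidopsis thaliana plants grown for 7 days had their root tips removed, and cells were profiled 16 h later by droplet sequencing of transcript 3′ ends. The mutant genotype was lbd_quad, which carries mutations in LBD6, LBD36, LBD12 and LBD15 (lbd6 lbd36 lbd12 lbd15), 4 members of the LATERAL ORGAN BOUNDARIES DOMAIN family of transcription regulators, and the comparison was with wild type (WT) treated in the same way, with 2 libraries per genotype. Every library was cut and recovered, so no uncut root enters any comparison, and all cells had their walls digested before capture. Nothing in the labels says that the replicates came from separate plantings, so p-values measure only the spread between these libraries, which may be technical.

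The lbd_quad libraries held 846 and 2876 cells, against 1746 and 5061 cells in WT. Their totals ran from 7073293 to 21280667 unique molecular identifiers (UMIs, each a captured transcript), with a median per cell of 6364 in lbd_quad replicate 1 and between 2090 and 2522 in the other 3. Of the mutated genes, LBD12 had 0.335 and 0.142 UMIs per 10000 in the lbd_quad libraries, against 2.55 and 1.27 in the WT libraries. The LBD12 difference missed the threshold (adjusted p = 0.0575, by the limma test described below). LBD6, LBD36 and LBD15 were under 0.1 in all 4 libraries, so they check no label, and a 3′ tag can lie outside a mutated stretch. Libraries shared at most 3 cell barcodes. Clusters were named from 79 markers of 10 cell classes. Of 29 clusters 12 took a name, in 7 classes. No cluster took the name of non-hair epidermis, procambium, or the quiescent centre and stem cell niche. The unnamed clusters held 83.9% and 63.5% of lbd_quad cells, against 71.0% and 60.1% of WT cells. Cluster 21, led by ADH1, ASN1 and ASL5, which is LBD12, held 10.3% of the cells of WT replicate 1 and at most 0.355% of any other library. The part of cell makeup in the LBD12 difference was not tested.

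The catalytic stretch of the XTH genes shows how alike these enzymes are. In the TAIR10.1 reference each of the 25 XTH loci carries, in its coding sequence, a 27-base stretch for 9 residues, with a pair of glutamates that act in cutting and rejoining the chain. The stretches of the genes on which the results turn are printed 5′ to 3′ on the coding strand, with the glutamate codons in capitals.
TCH4: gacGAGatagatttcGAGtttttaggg
XTH16: gacGAGatagactttGAGtttcttggt
XTH17: gatGAGatcgatttcGAGttcttggga
XTH18: gatGAGattgatttcGAGttcttagga
XTH19: gatGAGattgatttcGAGtttttgggg
XTH33: gacGAGatagacataGAAttgttgggt
TCH4 and XTH16 to XTH19 encode the same 9 residues, as do 20 of the 25 loci, although all 25 differ in their bases. XTH33 shares 7 of the 9 residues with TCH4, and so do XTH9, XTH30, XTH31 and XTH32. Over the whole protein, XTH17 and XTH18 were 93.3% identical, XTH18 and XTH19 92.1%, and XTH15 and XTH16 85.8%. Reads from such close copies could be split between them in counting. In the last 500 bases of the transcripts, where 3′ tags fall, 4 of 595 pairs of genes shared any run of 31 bases, and of 470 such runs XTH12 and XTH13 shared 7, XTH17 and XTH19 shared 8, XTH17 and XTH18 shared 3, and XTH18 and XTH19 shared 2. XTH18 and XTH19 are neighbours on chromosome 4, on the same strand and 1500 bases apart, and TCH4 lies 565 bases from XTH25 on chromosome 5.

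The 250 bases before the annotated start of TCH4 and of EXPA17 are shown because, of the genes that passed the filter on low values, these had the largest log2 fold changes between genotypes over all cells. They come from the RefSeq annotation of TAIR10.1, at chr5:23308681-23308930 on the minus strand and at chr4:700316-700565 on the plus strand.
TCH4: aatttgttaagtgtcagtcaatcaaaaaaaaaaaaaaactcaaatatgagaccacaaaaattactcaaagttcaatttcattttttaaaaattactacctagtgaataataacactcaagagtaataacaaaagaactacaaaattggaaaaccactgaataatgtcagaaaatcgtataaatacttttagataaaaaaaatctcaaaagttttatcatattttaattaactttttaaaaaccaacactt
EXPA17: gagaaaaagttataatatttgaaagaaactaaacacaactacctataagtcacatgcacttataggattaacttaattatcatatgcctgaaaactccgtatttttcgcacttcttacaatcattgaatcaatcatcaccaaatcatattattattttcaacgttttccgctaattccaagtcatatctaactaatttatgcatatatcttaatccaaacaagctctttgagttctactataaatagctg
No capitals appear because none of the 4 motifs searched on both strands was found in either window. The auxin response element TGTCTC was present in the same window of 3 of the 34 genes (EXPA5, EXPA6 and EXPA10), and in 10.9% of 27444 promoters. GCGGCG, a motif bound by LBD proteins, was in 0 of the 34 and in 1.56% of promoters. CGTGCG, the only form of the brassinosteroid response element searched, was in 0 and in 1.57%, and the G-box CACGTG in 0 and in 6.49%. No matches overlapped. These counts describe letters in this window.

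Over all cells, 1 of the 23 genes that could be tested passed between genotypes, beside 0.389% of all genes. That gene was TCH4, which rose in lbd_quad, while EXPA17 and EXPA14 had lower values in both lbd_quad libraries and missed the threshold. Levels are the mean over the cells of a library of UMIs per 10000 UMIs of the cell, and the test was limma on log2(level + 0.1), with p-values adjusted by the Benjamini-Hochberg method over 9515 genes that averaged at least 0.1. Of these genes 37 had an adjusted p under 0.05. A UMI counts a transcript once whatever its length, so levels of different genes can be set side by side. Fold changes are lbd_quad over WT on that scale and are too small for low genes. In mixed cell populations, fewer cells of a type and less RNA per cell cannot be told apart. Of the 34 genes, 23 passed the filter on low values and 11 did not. The median log2 fold change was -0.13 for those 23 and 0.01 for all 9515 genes. Libraries of the genotypes did not overlap for 8 of the 23, in 5 with lbd_quad above and in 3 below, beside 37% of all genes tested.

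**Figure D1:**
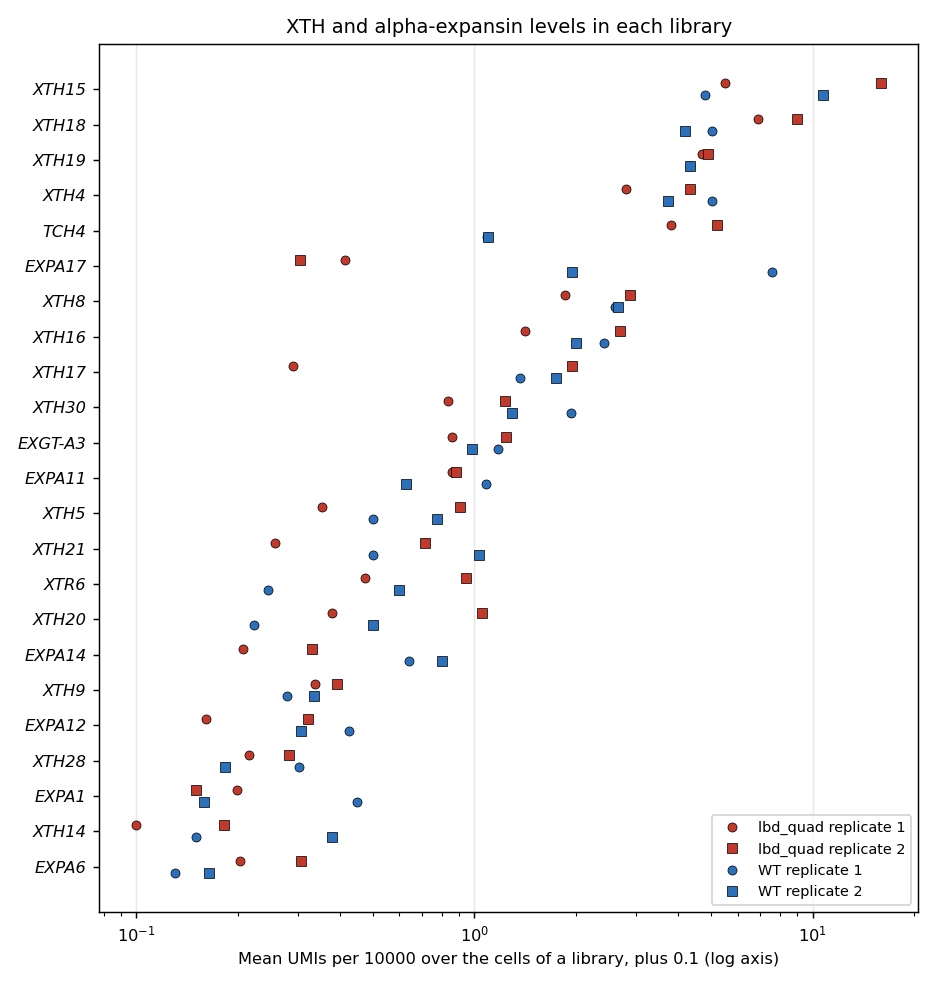
Level of each of the 23 genes that passed the filter, in each library (mean UMIs per 10000 plus 0.1, log axis; red, lbd_quad; blue, WT; circle, replicate 1; square, replicate 2). TCH4 had both lbd_quad libraries above both WT libraries, EXPA17 had both below, and most other genes overlapped.

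TCH4 (XTH22, AT5G57560), first found as a gene induced by touch, had 3.72 and 5.10 UMIs per 10000 in the lbd_quad libraries, against 0.989 and 0.995 in the WT libraries. Both lbd_quad libraries lay above both WT libraries (log2 fold change 2.03, SE 0.30, adjusted p = 0.0429, limma). The means were 4.41 ± 0.981 in lbd_quad and 0.992 ± 0.00467 in WT (SD, n = 2 each). The call rested on 14602 UMIs. The direction stayed the same without any one of the 4 libraries. Such fits leave a genotype with 1 library, so they do not test the call. The call did not hold when each library was given the same mean makeup of 19 shared clusters, where the log2 fold change was 1.03 (adjusted p = 0.817, limma). The same cells without that weighting gave 2.04. The call was also lost with summed UMIs, cells of at least 2000 UMIs, equal cell numbers, size factors, no filter or a pseudocount of 1, with log2 fold changes from 1.43 to 2.07 and adjusted p between 0.0583 and 0.254 (limma).

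The clusters that supplied TCH4 were compared without a test. Cluster 3, led by GRP5, LTP2 and LTPG1, held 28.1% and 15.0% of lbd_quad cells, against 1.49% and 0.119% of WT cells. This cluster gave 62.7% and 41.4% of the lbd_quad TCH4 level, against 1.16% and 1.14% in WT. Outside it, TCH4 had 1.93 and 3.52 in the lbd_quad libraries, against 0.992 and 0.985 in the WT libraries, so the genotypes still did not overlap. Cluster 8, led by sks15 and AGP31, gave 0.289% and 0.315% of the TCH4 level in lbd_quad, against 33.2% and 26.9% in WT. That cluster held 5 and 5 lbd_quad cells (0.592% and 0.174%), against 90 and 437 WT cells (5.15% and 8.63%). Within it, TCH4 had 1.81 and 9.24 in lbd_quad, from 3 and 17 UMIs, against 6.38 and 3.10 in WT. These levels overlapped, so the low shares in lbd_quad do not show a lower TCH4 level in those cells.

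EXPA17 (AT4G01630), an expansin known for its role in lateral root formation, had 0.315 and 0.205 UMIs per 10000 in the lbd_quad libraries, against 7.50 and 1.85 in the WT libraries. WT replicate 1 was well above WT replicate 2, and both lay above lbd_quad (log2 fold change -3.44, SE 0.57, adjusted p = 0.0649, limma). With any one library left out, the log2 fold change ran from -4.42 without WT replicate 2 to -2.45 without WT replicate 1. Such fits leave a genotype with 1 library, so only the effect size is given. EXPA14 (AT5G56320) had 0.107 and 0.232 in the lbd_quad libraries, against 0.542 and 0.702 in the WT libraries (log2 fold change -1.45, SE 0.30, adjusted p = 0.116, limma), again without overlap. The other expansins past the filter were EXPA11 (AT1G20190), EXPA12 (AT3G15370), EXPA6 (AT2G28950) and EXPA1 (AT1G69530), with log2 fold changes of 0.08, -0.67, 0.77 and -0.63 and adjusted p-values of 0.436 or more. EXPA6 alone of these 4 had both lbd_quad libraries, 0.103 and 0.207, above both WT libraries, 0.0298 and 0.0639. Summed over the 10 expansins, the level was 1.5 and 1.77 in the lbd_quad libraries, against 9.76 and 3.47 in the WT libraries, and EXPA17 made up most of the WT sum.

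Among the XTH genes XTH15 (AT4G14130) had the highest level on average over the 4 libraries, with 5.39 and 15.9 UMIs per 10000 in the lbd_quad libraries, against 4.71 and 10.6 in the WT libraries. XTH18 lay above it in both replicate 1 libraries. The replicates of one genotype differed more than the genotypes did (log2 fold change 0.38, SE 0.57, adjusted p = 0.938, limma). XTH18 (AT4G30280) and XTH19 (AT4G30290) came next by that average. XTH18 had 6.79 and 8.88 in the lbd_quad libraries, against 4.95 and 4.10 in the WT libraries (adjusted p = 0.576), and XTH19 had 4.61 and 4.80 in the lbd_quad libraries, against 4.25 and 4.24 in the WT libraries (adjusted p = 0.950), both without overlap and with lbd_quad above. XTH17 (AT1G65310), their close copy, had 0.192 and 1.84 in the lbd_quad libraries, against 1.26 and 1.64 in the WT libraries, where lbd_quad replicate 1 lay far below the other 3. XTH4 (AT2G06850), XTH8 (AT1G11545) and XTH16 (AT3G23730) had between 1.31 and 4.93 UMIs per 10000 in every library, and all 3 overlapped.

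Lower XTH levels, under 2 UMIs per 10000 in every library, belonged to XTH30 (AT1G32170), EXGT-A3 (XTH27, AT2G01850), XTH21 (AT2G18800), XTH5 (AT5G13870), XTR6 (XTH23, AT4G25810), XTH20 (AT5G48070), XTH9 (AT4G03210), XTH28 (AT1G14720) and XTH14 (AT4G25820). Their log2 fold changes ran from -0.82 for XTH14 to 0.92 for XTH20, and their adjusted p-values were at least 0.737. Only XTH30, with 0.736 and 1.13 in the lbd_quad libraries, against 1.83 and 1.19 in the WT libraries, and XTH9, with 0.238 and 0.293 in the lbd_quad libraries, against 0.178 and 0.235 in the WT libraries, did not overlap among these 9. XTH20 had 0.278 and 0.953 in the lbd_quad libraries, against 0.123 and 0.402 in the WT libraries. XTR6 had 0.376 and 0.842 in the lbd_quad libraries, against 0.146 and 0.497 in the WT libraries, and in both genes the replicate 2 libraries were the higher ones of each genotype.

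The 11 genes under the filter were XTH12 (AT5G57530), XTH13 (AT5G57540), XTH24 (AT4G30270), XTH25 (AT5G57550), XTH31 (AT3G44990), XTH32 (AT2G36870), XTH33 (AT1G10550), EXPA4 (AT2G39700), EXPA5 (AT3G29030), EXPA10 (AT1G26770) and EXPA15 (AT2G03090). They held between 6 and 305 UMIs each over all libraries. XTH33 was the most abundant of them and is given with cluster 9. XTH24 had 0.127 and 0.0858 UMIs per 10000 in the lbd_quad libraries, against 0.0257 and 0.0188 in the WT libraries, from 174 UMIs in all. XTH25 had 6 UMIs in lbd_quad and 0 in WT. Its lbd_quad level was 2.60-fold the limit that 3 UMIs over the WT libraries allow. Such limits cover counting error of the genotype at 0 only. The count of the other genotype is taken as it stands, so the ratio is no lower bound.

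**Figure D2:**
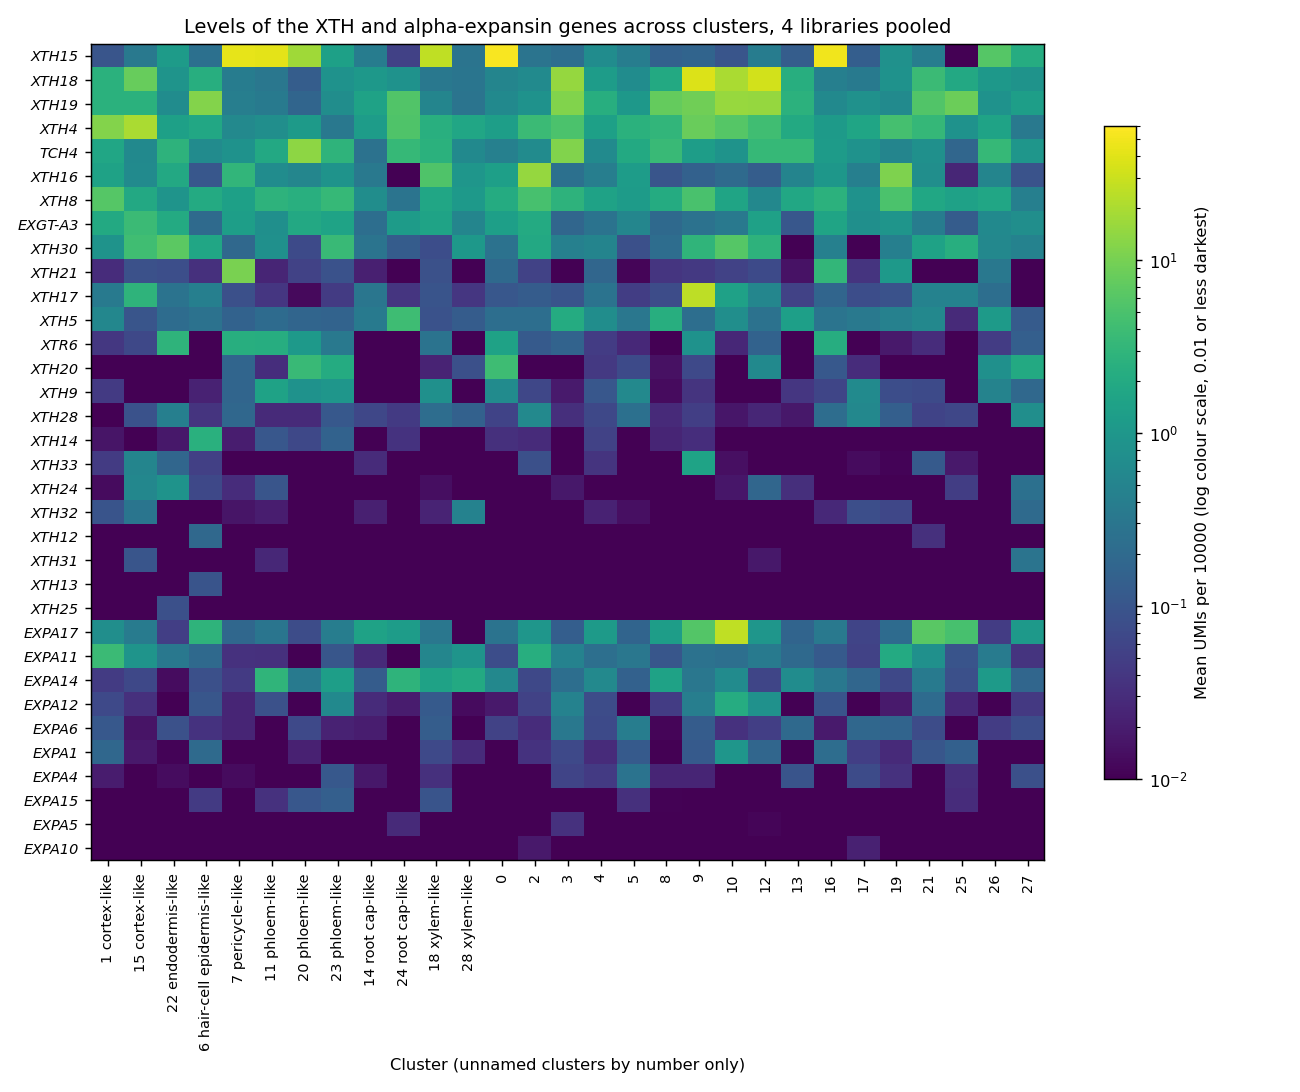
Mean UMIs per 10000 of each of the 34 genes in each of 29 clusters, over the cells of all 4 libraries (log colour scale; named clusters on the left, then unnamed clusters by number). XTH21 was high in the pericycle-like cluster and XTH14 in the hair-cell epidermis-like cluster, while XTH4 and XTH8 were spread over most clusters.

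Across clusters the genes fell into narrow and broad patterns. These levels are a description without a test. The clusters were made without these genes or the wall lists among the variable genes. XTH21, which acts in primary root growth, was narrow, and the pericycle-like cluster 7 held 84.1% of its UMIs. Its level there was 9.53 and 7.95 UMIs per 10000 in lbd_quad, against 11.4 and 12.1 in WT. Those cells numbered 12 and 184 in lbd_quad, against 48 and 298 in WT. The next cluster by XTH21 level had 3.13. XTH14, and at far lower counts XTH12 and XTH13, were found in the hair-cell epidermis-like cluster 6, with 92.2%, 86.7% and 84.2% of their UMIs. These 3 genes are known from root hairs. That cluster held 3 and 58 lbd_quad cells, against 73 and 462 WT cells. XTH14 had 0 UMIs in the 3 cells of lbd_quad replicate 1 and 3.68 UMIs per 10000 in lbd_quad replicate 2, against 1.09 and 2.63 in WT.

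XTH15 was high in the unnamed clusters 0, led by AT4G14650 and AT1G72230, and 16, led by CLE5 and PDLP7, in the pericycle-like cluster 7, the phloem-like clusters 11 and 20 and the xylem-like cluster 18. In cluster 0 it had 73.7 and 79.4 UMIs per 10000 in lbd_quad, against 46.1 and 43.7 in WT, and a UMI was found in 100% and 95.1% of lbd_quad cells, against 97.4% and 91.8% of WT cells, at median depths of 9403.5 and 1307 against 5782 and 1557 UMIs. In cluster 9 the share of cells with a UMI of XTH15 was between 0% and 2.62% in the 4 libraries, at median depths of 1132 to 6238 UMIs. XTH16, its closest relative here, was instead highest in cluster 2, led by AT4G11290 and RCI3, with 22.5 and 24.0 UMIs per 10000 in lbd_quad, against 11.4 and 14.0 in WT, a cluster that held 53.0% of its UMIs.

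The next ranks are of levels pooled over the cells of all libraries, which fill the clusters unequally. XTH17, XTH18 and XTH33 ranked highest in cluster 9, which XTH17 itself leads together with AT1G19900. For XTH18 that order held in WT, while both lbd_quad libraries had more of it in cluster 12. XTH17 was narrow, with 78.3% of its UMIs in cluster 9. XTH18 and XTH19 were also high in clusters 3, 10 and 12, where XTH17 was low: pooled over libraries, cluster 12 had 33.3 UMIs per 10000 of XTH18 and 15.2 of XTH19 but 0.536 of XTH17. XTH4, XTH8, EXGT-A3 and EXPA11 peaked in the cortex-like clusters, at 19.8, 6.005, 3.70 and 3.78 UMIs per 10000. The endodermis-like cluster 22 ranked highest for XTH30 and XTR6, with 613 and 176 UMIs there, and for XTH24 with 31. XTH9 and EXPA14 peaked in the phloem-like cluster 11, XTH5 in the root cap-like cluster 24, XTH20 in cluster 0, and EXPA4 and EXPA6 in cluster 5. The XTH5 peak came from WT cells, with 4 and 0 UMIs in lbd_quad against 99 and 184 in WT. Other peaks rested on few UMIs and give no firm rank: EXPA5 had 22 in cluster 3, EXPA15 15 in the phloem-like cluster 23, XTH28 10 and XTH31 5 in cluster 27, XTH32 2 in the xylem-like cluster 28, EXPA10 2 in cluster 17, and XTH25 1 in cluster 22.

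Pooled in the same way, EXPA17, EXPA1, EXPA12 and XTH19 ranked highest in cluster 10, led by AT2G43890. It held 0 and 11 lbd_quad cells, against 165 and 292 WT cells. These ranks therefore describe WT cells. For EXPA1, 139 of the 147 UMIs there came from WT replicate 1. In lbd_quad replicate 2 EXPA12 had 0 UMIs in cluster 10 and 1.31 UMIs per 10000 in cluster 12. EXPA17 had 2.17 UMIs per 10000 in cluster 10 in lbd_quad replicate 2, against 44.6 and 16.7 in WT, and cluster 10 gave 56.2% and 52.2% of the WT level. Outside cluster 10, EXPA17 had 0.315 and 0.197 in the lbd_quad libraries, against 3.63 and 0.938 in the WT libraries, still without overlap. In WT replicate 1 every one of 22 clusters with at least 20 cells held EXPA17, at 0.622 UMIs per 10000 or more, and in WT replicate 2 every one of 24, at 0.0556 or more. A UMI of EXPA17 was found in 87.9% and 74.0% of WT cells of cluster 10, at median depths of 1918 and 1810 UMIs, and in 25% and 4.26% of WT cells of the phloem-like cluster 11, at 11234 and 2638 UMIs. The part of RNA free in solution in the low levels was not tested.

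**Figure D3:**
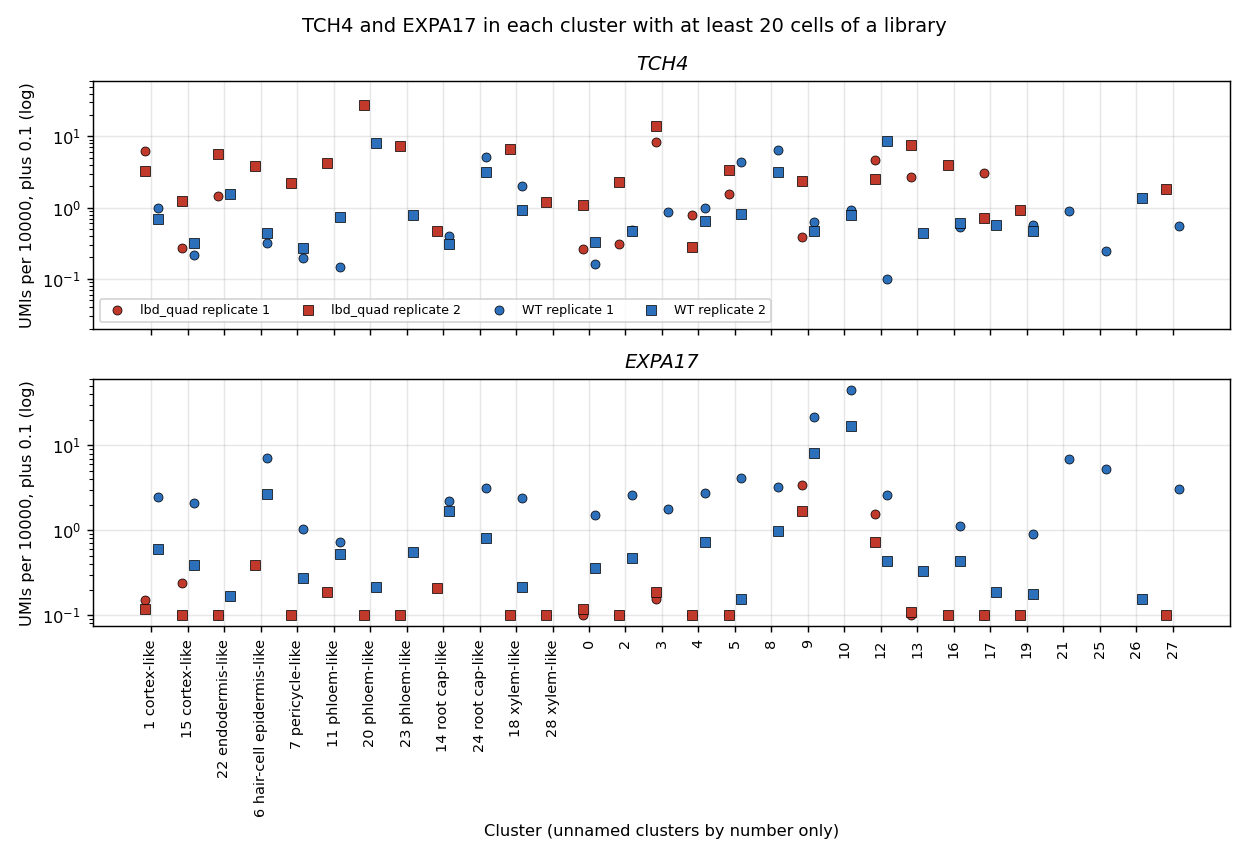
TCH4 (top) and EXPA17 (bottom) in each cluster with at least 20 cells of a library (mean UMIs per 10000 plus 0.1, log axis; red, lbd_quad; blue, WT; circle, replicate 1; square, replicate 2). EXPA17 peaked in WT cells of clusters 10 and 9, and TCH4 in lbd_quad cells of clusters 20 and 3.

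The genotypes were also compared within clusters, in 8 units with at least 20 cells in every library: the cortex-like and phloem-like classes, and the unnamed clusters 0, 2, 4, 5, 9 and 12. The numbered clusters were added after seeing the data. A unit can still hold different cells in each genotype: at the finer resolution of 2, also used after the data were seen, cluster 24 held 2.00% and 1.01% of the cortex-like cells of lbd_quad, against 69.5% and 10.7% of those of WT. In the cortex-like class TCH4 and XTH16 rose in lbd_quad, 2 of 17 genes of the families tested there, beside 0.568% of all genes. TCH4 had 3.60 and 2.59 UMIs per 10000 in the lbd_quad libraries, against 0.771 and 0.510 in the WT libraries (log2 fold change 2.11, SE 0.36, adjusted p = 0.0331, limma). XTH16 had 1.64 and 2.63 in the lbd_quad libraries, against 0.465 and 0.351 in the WT libraries (log2 fold change 2.11, SE 0.37, adjusted p = 0.0331, limma). In both genes lbd_quad lay above WT in every library. The cortex-like cells came from clusters 1 and 15, with 29 and 286 cells of cluster 1 in lbd_quad against 178 and 322 in WT, and 21 and 111 cells of cluster 15 in lbd_quad against 32 and 80 in WT. Inside the other 3 finer clusters of at least 50 cortex-like cells, XTH16 had both lbd_quad libraries above both WT libraries in all 3, and TCH4 in 2. These are the cells and libraries of the test itself, so the split gives no separate support for the calls. The share of all genes without overlap in them was not computed. The finer cluster led by ATS3 held 14 and 178 lbd_quad cells, against 14 and 200 WT cells. In the finer cluster led by AT1G09750, TCH4 had 10.9 and 7.21 UMIs per 10000 in the lbd_quad libraries, against 0.176 and 0.972 in the WT libraries, from 14 and 81 lbd_quad cells and 17 and 45 WT cells. The TCH4 call was lost without lbd_quad replicate 1 (adjusted p = 0.188), without lbd_quad replicate 2 (0.0848) and without WT replicate 2 (0.241), and the XTH16 call without any one library (adjusted p between 0.0526 and 0.232). EXPA17 had 0.0870 and 0.0134 in the lbd_quad libraries, against 2.33 and 0.457 in the WT libraries there (log2 fold change -3.00, SE 0.60, adjusted p = 0.0589), and XTH4 10.2 and 9.85 in the lbd_quad libraries, against 17.5 and 16.2 in the WT libraries (adjusted p = 0.566).

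Cluster 9 showed falls in 3 of 18 genes tested, XTH33, EXPA17 and XTH17, and no rise, beside 0.778% of all genes. XTH33, an XTH reported to sit at the plasma membrane, had 0.0205 and 0.549 UMIs per 10000 in the lbd_quad libraries, against 3.60 and 2.66 in the WT libraries (log2 fold change -3.51, SE 0.62, adjusted p = 0.00191, limma), from 1 and 19 UMIs in lbd_quad against 62 and 102 in WT. EXPA17 had 3.35 and 1.58 in the lbd_quad libraries, against 21.3 and 7.92 in the WT libraries (log2 fold change -2.44, SE 0.51, adjusted p = 0.00960). XTH17 had 3.21 and 18.4 in the lbd_quad libraries, against 40.1 and 34.0 in the WT libraries (log2 fold change -2.24, SE 0.53, adjusted p = 0.0299). Both lbd_quad libraries were below both WT libraries in all 3, and for XTH33 and XTH17 replicate 1 was the lower of the lbd_quad pair. XTH18 had 7.62 and 28.7 in the lbd_quad libraries, against 49.2 and 51.7 in the WT libraries (adjusted p = 0.0892), XTH19 2.11 and 7.44 in the lbd_quad libraries, against 11.2 and 11.8 in the WT libraries (adjusted p = 0.191), and XTH4 3.28 and 6.42 in the lbd_quad libraries, against 12.02 and 10.2 in the WT libraries (adjusted p = 0.280). The cluster held 36 and 242 lbd_quad cells, against 47 and 191 WT cells. Leaving out any one library kept the direction of XTH33, EXPA17 and XTH17 and left 0 genes of the families past the threshold, with adjusted p between 0.0634 and 0.999.

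The cells of cluster 9 were not the same mixture in each genotype, and at the finer resolution of 2 they fell mainly into a pair of clusters. The one led by XTH17 and AT1G19900 held 11 and 130 lbd_quad cells, against 47 and 176 WT cells. The other, led by ARAB-1, held 25 and 110 lbd_quad cells, against 0 and 12 WT cells, and in it XTH17 had 0 and 5 UMIs in lbd_quad against 0 and 2 in WT, and XTH33 had 0 UMIs. In the XTH17-led cells alone, XTH33 had 0.0670 and 1.02 UMIs per 10000 in the lbd_quad libraries, against 3.60 and 2.89 in the WT libraries, still without overlap. XTH17 had 10.5 and 33.9 in the lbd_quad libraries, against 40.1 and 36.4 in the WT libraries in those cells, where lbd_quad replicate 2 lay close to WT. EXPA17 had 10.97 and 2.84 in the lbd_quad libraries, against 21.3 and 8.50 in the WT libraries, and the genotypes overlapped. XTH18 had 21.9 and 51.4 in the lbd_quad libraries, against 49.2 and 55.4 in the WT libraries there, and overlapped as well. These values carry no test, because lbd_quad replicate 1 had 11 such cells. The falls in cluster 9 as a whole and this difference in mixture cannot be told apart by the test above.

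In cluster 12, led by PSK4 and CYP94B3, no gene passed, of the families or of all 8306 tested (0%, with 642 at an unadjusted p under 0.05), and WT had 22 and 31 cells there. XTH19 had 17.7 and 17.8 UMIs per 10000 in the lbd_quad libraries, against 3.51 and 3.95 in the WT libraries (log2 fold change 2.22, SE 0.41, adjusted p = 0.271, limma). XTH18 had 31.3 and 41.8 in the lbd_quad libraries, against 6.86 and 11.9 in the WT libraries (log2 fold change 1.99, SE 0.47, adjusted p = 0.457). These values lay with lbd_quad above. This cluster also held different mixtures: the finer cluster led by PRXCB and PSK4 held 40 and 137 lbd_quad cells, against 0 and 7 WT cells, and the one led by GA2OX6 and CYP94B3 held 35 and 25 lbd_quad cells, against 22 and 24 WT cells. In the GA2OX6-led cells alone XTH18 had 12.8 and 22.2 in the lbd_quad libraries, against 6.86 and 6.29 in the WT libraries. XTH19 had 14.7 and 8.28 in the lbd_quad libraries, against 3.51 and 2.15 in the WT libraries in them, and both genes kept lbd_quad above WT without overlap. EXPA12 had 26 and 161 UMIs in lbd_quad and 0 in both WT libraries. Its lbd_quad level was 3.67-fold the limit of 3 UMIs over the WT cells.

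**Figure D4:**
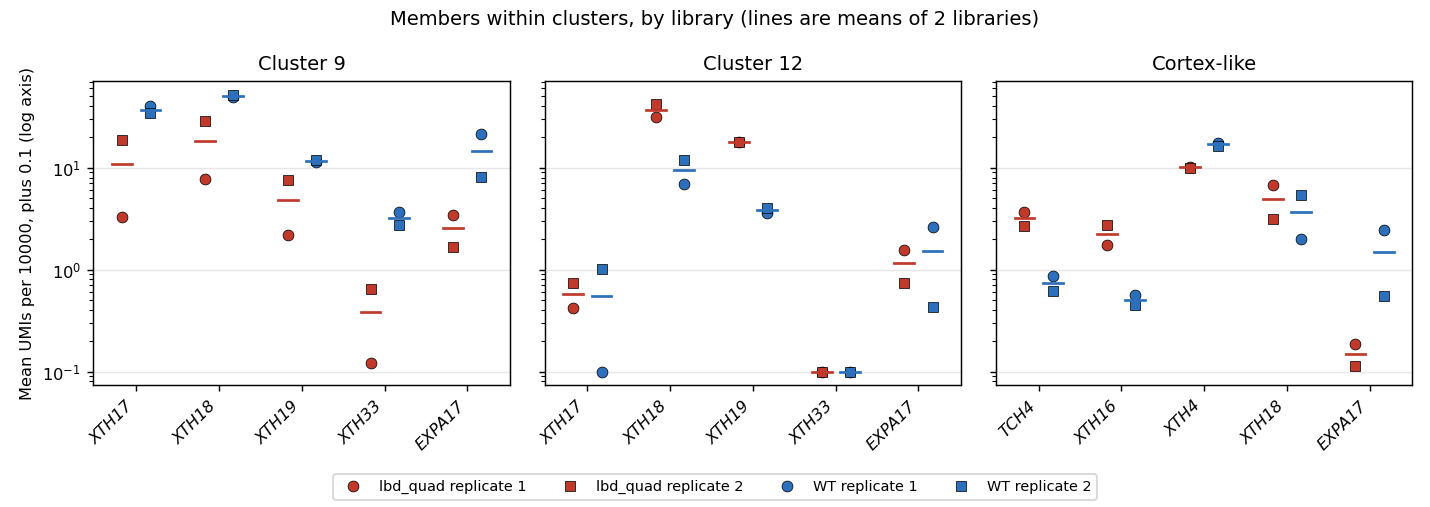
Levels of 5 genes each in cluster 9, cluster 12 and the cortex-like class (mean UMIs per 10000 plus 0.1, log axis; red, lbd_quad; blue, WT; circle, replicate 1; square, replicate 2; lines, means of 2 libraries). XTH18 and XTH19 had lbd_quad below WT in cluster 9 and above WT in cluster 12, clusters whose finer makeup differed between genotypes.

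No gene of the families passed in the other 5 units. The background was 0.263% of genes called in cluster 0, 0.413% in cluster 2, and 0% in the phloem-like class, in cluster 4 and in cluster 5, where 466, 330 and 258 genes had an unadjusted p under 0.05. Values without overlap there included XTH15 in cluster 0, with 73.7 and 79.4 UMIs per 10000 in the lbd_quad libraries, against 46.1 and 43.7 in the WT libraries (adjusted p = 0.558), and XTH16 in cluster 2, with 22.5 and 24.0 in the lbd_quad libraries, against 11.4 and 14.0 in the WT libraries (adjusted p = 0.314). XTH20, known from healing stems, had 4.86 and 7.26 in the lbd_quad libraries, against 1.67 and 2.53 in the WT libraries in cluster 0 (adjusted p = 0.171). These clusters were mixed too. In cluster 0 a finer cluster with XTH20 among its leading genes held 57.9% and 64.5% of lbd_quad cells, against 16.7% and 32.7% of WT cells. In cluster 2 the finer cluster led by XTH16 held 52.4% and 63.9% of lbd_quad cells, against 16.0% and 53.2% of WT cells. The part of these mixtures in the values was not tested. EXPA17 had 0 UMIs in lbd_quad cells of clusters 2, 4 and 5, against 157, 130 and 19 UMIs in WT (adjusted p = 0.0811, 0.507 and 0.949, limma). The WT levels were 20.0-fold, 8.01-fold and 11.9-fold the limit of 3 UMIs over the lbd_quad cells. Most of those WT UMIs came from WT replicate 1 (140, 108 and 15). TCH4 in the phloem-like class had 1.97 and 10.9 in the lbd_quad libraries, against 0.111 and 3.12 in the WT libraries (adjusted p = 0.979), with cluster 20 the high one, which had 0 and 62 lbd_quad cells and 3 and 136 WT cells.

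Whether the genotype effect itself differed between units was tested in 1 limma fit over all units, which took the library as a random block, for 28 pairs of units. Over all genes 0.615% of such tests passed within their pair. Of the families, 18 of 588 tests did (3.06%), in 5 genes: XTH33, EXPA12, XTH19, XTH18 and XTH16. Tests of the same gene share effects and are not independent. Every XTH33 test that passed used its effect in cluster 9, and every EXPA12 test that passed used its effect in cluster 12. EXPA12 had 0 UMIs in WT cells of cluster 12, so that effect depends on the pseudocount. The 3.06% therefore does not count separate results and cannot show an excess beside 0.615%. For XTH18 the effect in cluster 12 minus that in cluster 9 was 3.75 (SE 0.88, adjusted p = 0.0133), and for XTH19 it was 3.73 (SE 0.88, adjusted p = 0.0137). These single-cluster effects were opposite in sign, and each missed the threshold in its own cluster. Both clusters hold finer clusters nearly absent from WT. In the XTH17-led cells of cluster 9 XTH18 overlapped between genotypes. In the GA2OX6-led cells of cluster 12 both XTH18 and XTH19 kept lbd_quad above WT without overlap. The difference cannot be told apart from that of the mixtures by this fit. Adjusted over all 28 pairs together 14 of the 588 tests passed. The share over all genes was not computed for that adjustment, so this count has no background. The XTH18 test did not pass there (adjusted p = 0.0619, limma), nor did the XTH19 test (adjusted p = 0.0660).

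**Figure D5:**
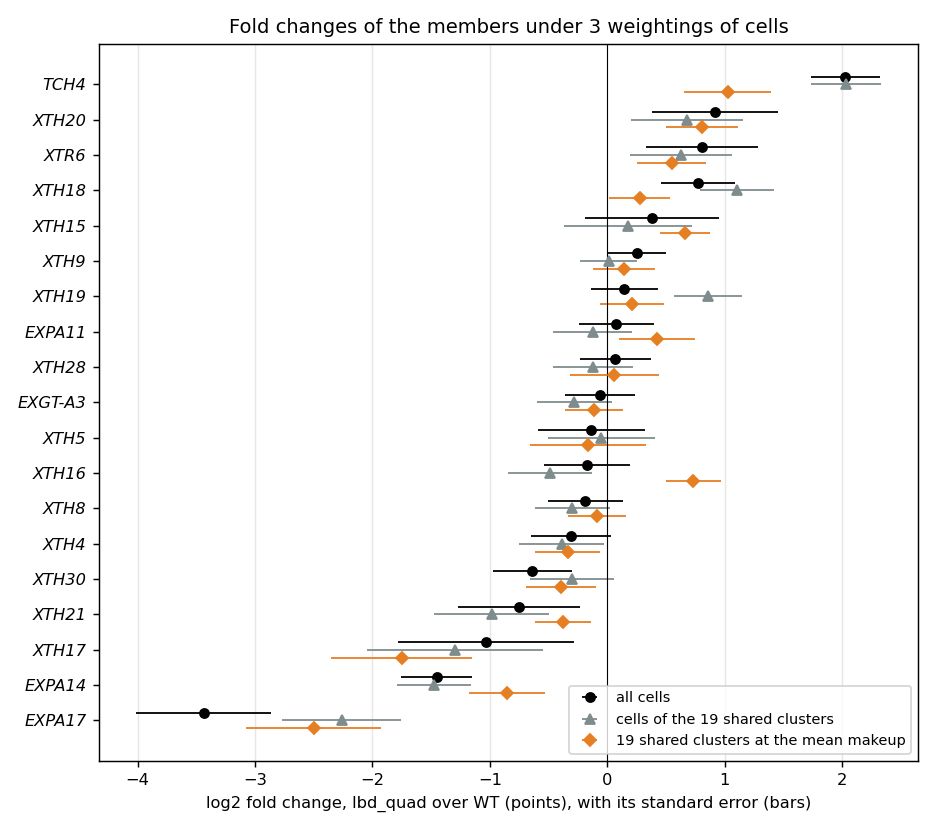
log2 fold change of 19 genes, lbd_quad over WT, with its standard error (bars), over all cells (black), over the cells of the 19 shared clusters (grey) and over those clusters at the mean makeup of the libraries (orange). TCH4 stood at 2.03 over all cells and at 1.03 with the mean makeup, and XTH16 changed side.

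Restricting the cells to shared clusters and weighting those clusters moved genes separately. XTH16 had a log2 fold change of -0.17 over all cells, -0.49 over the cells of the 19 shared clusters and 0.73 with those clusters at the mean makeup (adjusted p = 0.689, limma). XTH17 had -1.03, -1.30 and -1.75 in the same order. For EXPA17 the values were -3.44, -2.26 and -2.50, so the choice of cells moved it toward 0 and the weighting away from 0. The 19 clusters held 98.2% and 90.1% of lbd_quad cells, against 66.3% and 73.6% of WT cells. No gene of the families passed with that weighting.

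Other wall genes were read from 5 lists of 65 genes in all, and 0 of their genes passed the limma test over all cells. The background there was 37 of 9515 genes. Of the 65 genes 35 could be tested, and 7 of them (20%) had an unadjusted p under 0.05, beside 772 of 9515 genes (8.11%). Of the other XTH and expansin genes, 4 of 7 tested had a fold change above 0 and 3 below. The most abundant, EXPA9, had 0.495 and 0.747 UMIs per 10000 in the lbd_quad libraries, against 0.857 and 0.820 in the WT libraries. EXPA3 had 0.813 and 0.397 in the lbd_quad libraries, against 0.303 and 0.271 in the WT libraries. Of the genes that build and trim xyloglucan, 2 of 11 lay above 0 and 9 below. XXT2, a xylosyltransferase, had 1.48 and 1.35 in the lbd_quad libraries, against 1.58 and 1.62 in the WT libraries. XYL1, an alpha-xylosidase, had 1.48 and 1.10 in the lbd_quad libraries, against 0.547 and 1.36 in the WT libraries. For primary wall cellulose synthesis 1 of 8 lay above 0 and 7 below. The catalytic subunit CESA3 had 1.70 and 2.21 in the lbd_quad libraries, against 2.48 and 3.13 in the WT libraries. COB, a protein that orients cellulose deposition, had 2.38 and 2.36 in the lbd_quad libraries, against 2.62 and 2.54 in the WT libraries. Among regulators of wound, touch and auxin responses, 4 of 11 could be tested, of which 1 lay above 0 and 3 below. The 7 under the filter were not tested. Of those, ANAC096, LBD16, LBD18 and ERF115 had both lbd_quad libraries above both WT libraries, and ANAC071, LBD29 and BZR1 overlapped. Among genes past the filter 1827 of 9515 lay with lbd_quad above, and the share for genes under it was not computed. LBD18 had 9 and 27 UMIs in lbd_quad against 0 and 15 in WT, and ERF115 had 15 and 51 against 7 and 14. TCH2, a calmodulin-like touch gene, had 1.60 and 2.20 in the lbd_quad libraries, against 1.55 and 1.56 in the WT libraries. ARF7, an auxin response factor, had 0.0747 and 0.164 in the lbd_quad libraries, against 0.157 and 0.259 in the WT libraries.

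Of the 5 genes of wall acidification and sensing, 4 had both lbd_quad libraries below both WT libraries, beside 1689 of 9515 genes tested that did so. They had 4 unadjusted p-values under 0.05, and 0 passed the adjusted threshold in limma. The median log2 fold change was -0.80, beside 0.01 for all genes tested. AHA2, a plasma membrane proton pump of the root, had 2.70 and 3.49 UMIs per 10000 in the lbd_quad libraries, against 6.15 and 4.78 in the WT libraries (log2 fold change -0.80, SE 0.31, adjusted p = 0.538, limma). AHA1, another pump, had 0.972 and 1.19 in the lbd_quad libraries, against 1.62 and 2.40 in the WT libraries (log2 fold change -0.82, SE 0.31, adjusted p = 0.495). These are the pumps that lower wall pH, the condition under which expansins act. Whether wall pH or the action of expansins differed between genotypes was not tested. The median log2 fold changes of the other lists were 0.06 for other XTH and expansin genes, -0.21 for xyloglucan genes, -0.40 for cellulose genes and -0.30 for the 4 regulators tested.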

How the data were processed

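Single-cell libraries came from Arabidopsis thaliana root tips 16 h after root tip dissection, 2 from lbd_quad and 2 from WT. Values deposited by the authors are natural log values, ln(1 + UMIs per 10000 UMIs of the cell), as the values themselves show: on the linear scale each cell summed to 10000. Cell Ranger 7.0.1 and Seurat are named in the submitters' processing notes, without a role; the genome build and cell filters are not given in the sources used here. Of 13844 cell columns, 3315 matched no sample and were not used, which left 10529 cells and 20578 rows, of which 20511 were nuclear genes, all found in the TAIR10.1 reference annotation. Within each cell 100% of values were whole multiples of 1 UMI to within 0.01, which gave UMIs per cell. Each gene in each library is represented by the mean over cells, so a deep library is not weighted up, but cells of few UMIs carry more counting noise.

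Doublet calling marked 2 of 10529 cells (0.0190%), which were removed. That share is too low to rely on, so doublets remain possible. Cells were clustered with scanpy 1.11.5 without the XTH, expansin and list genes among the variable genes. A cluster took a class name, written with "-like", only from marker genes, and otherwise kept its number. Levels were tested with limma 3.58.1 (R 4.3.3) on log2(level + 0.1), with genes averaging at least 0.1 UMIs per 10000, an adjusted p under 0.05 and lbd_quad over WT; within clusters at least 20 cells per library were required. The deposited unit is not counts, and no count model was run on the recovered UMIs. The limma procedure was tried on simulated library values. Those held no cells or clusters, so they do not check it where cell makeup differs. The genes, lists and markers were chosen with earlier results of these data known. All 34 measured genes are named, with the 2 most abundant genes of each list, the regulators under the filter, the mutated LBD genes and the leading genes of clusters. Alternatives were other pseudocounts, no filter, summed UMIs, size factors, cells of at least 2000 UMIs, equal cell numbers (844 per library), a mean cluster makeup, other cluster resolutions, a replicate block and each library left out. The numbered clusters, the cells of the shared clusters and the finer clusters inside each unit were added after the data were seen. Sequences and protein identities come from the RefSeq annotation of TAIR10.1.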

Additional observations from a re-analysis of the deposited data

Results flagged for a closer look

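The genotype effect on a gene, lbd_quad over WT on the log2 scale, differed between groups of cells in 18 tests of the difference itself, in 5 genes (limma, adjusted p under 0.05 within each pair of units). All are differences of effects, not levels. Tests of the same gene share effects, so they are not separate results.

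For XTH33, the effect in cluster 5, in cluster 12 and in cluster 0 minus that in cluster 9 was 3.51 each, and the effect in cluster 9 minus that in the phloem-like class was -3.51 and minus that in the cortex-like class -3.32. XTH33 had 0 UMIs in clusters 5 and 12 and in the phloem-like class, so these values restate the fall in cluster 9.

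For XTH16, the effect in cluster 4 minus that in the cortex-like class was -4.49. In cluster 4 XTH16 had 0 UMIs in lbd_quad and 40 in WT.

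For XTH19, the effect in cluster 12 minus that in cluster 2 was 4.15, minus that in cluster 9 it was 3.73 and minus that in the phloem-like class 3.55, and the effect in cluster 0 minus that in cluster 12 was -3.51. For XTH18, the effect in cluster 12 minus that in cluster 9 was 3.75.

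For EXPA12, the effect in cluster 12 exceeded that in clusters 4, 5, 2 and 9 by 3.73, 3.71, 3.68 and 3.39, and that in the phloem-like and cortex-like classes by 3.54 and 3.50. The effect in cluster 0 minus that in cluster 12 was -3.08. EXPA12 had 0 UMIs in WT cells of cluster 12, so these fitted values depend on the pseudocount.

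Clusters 0, 2, 4, 5, 9 and 12 and the cortex-like class differed between libraries in the finer clusters they held. The part of that in these 18 differences was not tested.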

How the results depend on the processing

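Over all cells 37 genes passed. The count was 1 with summed UMIs, 3 with the mean cluster makeup, 12 with size factors, 0 with no filter on low values (limma; 1557 at an unadjusted p under 0.05), 21 with a pseudocount of 1 and 167 to 290 without 1 library. Of the 34 genes 1, TCH4, passed, and with each of summed UMIs, cells of at least 2000 UMIs, equal cell numbers, the mean makeup, size factors, no filter and a pseudocount of 1 the number was 0. Its adjusted p was then between 0.0583 and 0.817, and without 1 library 3 to 6 genes passed. Leaving out 1 library leaves a genotype with 1, which is assumed to vary like the other genotype.

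In the cortex-like class 49 genes passed, against 12 at Leiden resolution 2, 16 with summed UMIs, 26 with cells of at least 2000 UMIs, 0 with no filter, 27 with a pseudocount of 1 and 7 to 20 without 1 library. The families' 2 calls became 0, 0, 1, 0, 1 and 0 to 1 under these settings. In the phloem-like class 0 genes passed, and 0 to 7 without 1 library. In cluster 9, 64 genes and 3 of the families passed, against 277 and 6 with cells of at least 2000 UMIs, 6 and 0 with no filter, 21 and 0 with a pseudocount of 0.01, and 0 to 10 and 0 without 1 library.

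Replicate numbers are shared by the genotypes, but nothing states that they pair libraries. Deviations of same-numbered libraries correlated (r = 0.513 over 9515 genes, 2 pairs). With a replicate block 500 genes passed over all cells, 7 of them of the families (EXPA14, EXPA17, EXPA6, TCH4, XTH14, XTH20 and XTR6), 336 in the cortex-like class, and 51 in the phloem-like class with 1 of the families, TCH4. With the same block 1 gene of wall acidification and sensing passed, THE1.

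Of the genes that did not pass over all cells, the log2 fold change turned to -0.10 for XTH28, -0.018 for EXPA11, -0.16 for XTH9 and -0.32 for XTH15 with summed UMIs. In the cells of the shared clusters it turned to -0.12 for XTH28, -0.12 for EXPA11 and 0.24 for EXPA12, with equal cell numbers to -0.0040 for EXPA11, with cells of at least 2000 UMIs to -0.24 for XTH15, and with the mean makeup to 0.73 for XTH16. Without 1 library the value also changed side for some of them. It ranged from -0.50 to 0.13 for XTH8, from -2.40 to 0.34 for XTH17, from -0.81 to 0.54 for XTH5 and from -0.64 to 0.30 for XTH16. It ranged from -0.33 to 0.20 for EXGT-A3, from -0.62 to 0.0066 for XTH4, from -0.30 to 0.43 for XTH28, from -0.31 to 0.47 for EXPA11 and from -0.39 to 1.15 for XTH15.

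The share of cells, lbd_quad minus WT in percentage points, turned to -5.68 for endodermis-like and 0.43 for xylem-like at Leiden resolution 0.5, and to 0.83 for pericycle-like and 0.093 for xylem-like at resolution 2. No exact permutation test over 2 libraries against 2 can go below p = 0.333. The cause of these shifts was not tested. The genes under the filter, with at most 305 UMIs each, could not be tested over all cells.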
